A study of Mus musculus with 9 samples.

Results

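The mitochondrial ribosomal protein genes were followed in macrophages, tissue phagocytes, which were differentiated from mouse bone marrow. The members were all genes of the deposited count table whose mouse symbol begins with Mrpl or Mrps and a number, 78 of 22001 genes. RNA of 9 libraries was sequenced after 6 h, in 3 groups of 3, all from C57BL6 mice: Pam3CSK4 at 100 µg/ml with 3SL at 100 µl/ml, Pam3CSK4 alone at 100 µg/ml, and cells left untreated in PBS. Pam3CSK4, a lipopeptide made by synthesis, is an agonist of Toll-like receptor heterodimers. The abbreviation 3SL is read here, after the title of the series, as the milk sugar sialyllactose. The source labels give Pam3CSK4 for both treated groups, but the titles and treatment tags write Pamc3 for one and Pamc4 for the 3SL group, and Pamc4 was read as the same agonist. The 3SL dose is given as a volume, so its amount is not known, and the labels name no separate cultures or animals, so each p-value rests on the spread among the 3 samples of a group, and that spread may be technical.

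The labels could not be checked by a targeted gene, and inflammatory genes ran against them. Il1b, the gene of a fever-inducing cytokine, stood at 7495, 8353 and 8561 CPM in the 3SL-labelled libraries and 7.36, 4.30 and 7.03 CPM in the Pam3CSK4-labelled libraries, against 10260.2, 10559 and 9661 CPM in the untreated-labelled libraries. Tnf, which encodes tumour necrosis factor, stood at 1219, 1249.8 and 1332 CPM in the 3SL-labelled libraries and 18.9, 17.6 and 18.6 CPM in the Pam3CSK4-labelled libraries, against 1731, 1729 and 1651 CPM in the untreated-labelled libraries. Both were far lower in the libraries labelled with the activating lipopeptide than in those labelled untreated, so every direction given here rests on the labels, and the libraries are called by their labels throughout. The untreated and 3SL libraries carry the codes A to C and the Pam3CSK4 libraries the code D, so that code and group cannot be told apart for any comparison with the Pam3CSK4 libraries. Total counts ran from 7472482 to 43980309 per library, and principal component 1 took up 90.4% of the variance among the libraries. Summed macrophage markers stood at 23672 to 24388 CPM in the 3SL-labelled, 18909 to 19337 CPM in the Pam3CSK4-labelled and 24427 to 24991 CPM in the untreated-labelled libraries (10 of 10 markers tested). That sum is mostly Lyz2 and Adgre1, and single markers went both ways: between the Pam3CSK4- and untreated-labelled libraries 3 of the 10 were called higher and 5 lower with composition scaling, and 1 of these 8 turned sign with library size scaling. Summed lymphocyte markers were at most 13.4 CPM and erythroid and mast cell markers at most 5.35 CPM in any library. Summed dendritic cell markers stood at 88.2 to 92.4 CPM, 39.4 to 40.3 CPM and 89.5 to 91.6 CPM in the 3SL-, Pam3CSK4- and untreated-labelled libraries, neutrophil and progenitor markers at 471 to 525 CPM, 354 to 462 CPM and 582 to 611 CPM, and stromal markers at 7.45 to 9.99 CPM, 1.84 to 2.88 CPM and 11.8 to 13.2 CPM. Of 9 tested neutrophil and progenitor markers 4 were called higher and 4 lower by the same comparison and scaling, and of 4 tested dendritic cell markers 1 was higher and 3 lower, so that these sums do not stand for each marker. The part of other cell types in the results was not tested.

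Mitochondria make a small set of respiratory chain subunits on their own ribosomes, the mitoribosomes. Their ribosomal RNAs come from the mitochondrial genome, but every protein of the mitoribosome is encoded in the nucleus, made in the cytosol and imported. Some of these proteins have bacterial counterparts, and others were gained in the mitochondrial line, so an assembled particle needs products of many unlinked genes. Of the 78 members, 26 belong to the small subunit, which decodes the messenger, and 51 to the large subunit, which forms peptide bonds. Mrps36 is now assigned to the 2-oxoglutarate dehydrogenase complex in spite of its name. By textbook assignment, 46 members have a bacterial counterpart and 31 are specific to mitochondria.

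Levels are given as CPM, counts per 1000000 of a library's scaled total. Under composition scaling the totals were multiplied by TMM factors, which offset a few very high genes that take counts from the rest. These factors were 0.944 to 0.953 in the 3SL-labelled, 1.142 to 1.150 in the Pam3CSK4-labelled and 0.916 to 0.926 in the untreated-labelled libraries. Under library size scaling no such factor was used. The choice moved the median change of all 11469 tested genes between the Pam3CSK4- and untreated-labelled libraries, which was 0.027 on the log2 scale with TMM and 0.34 without, so both are given. A gene was called when its Benjamini-Hochberg adjusted p in edgeR's quasi-likelihood test was below 0.05. A filter on low counts left 77 of the 78 members. Only Mrpl53 was not tested. It had 0, 1 and 1 counts in the 3SL-labelled, 0, 0 and 8 in the Pam3CSK4-labelled and 3, 2 and 0 in the untreated-labelled libraries, and 88.0% of its exonic length, 695 of 790 bases, lies under the same-strand gene Gm42688.

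As a whole, the genes made up a larger share of the counted RNA in the Pam3CSK4-labelled libraries. They took 0.195%, 0.205% and 0.192% of counts in the 3SL-labelled libraries and 0.254%, 0.249% and 0.255% in the Pam3CSK4-labelled libraries, against 0.199%, 0.202% and 0.196% in the untreated-labelled libraries. The 3 Pam3CSK4-labelled values lay above all others, and the 3SL- and untreated-labelled values overlapped. A rise in share was not particular to the family. With library size scaling, 8249 of all 11469 tested genes had a positive change between the Pam3CSK4- and untreated-labelled libraries. The median change there was 0.34 on the log2 scale for all tested genes and 0.42 for the members. After composition scaling the summed level of the members was 2088 ± 73.1 CPM in the 3SL-labelled, 2209 ± 25.1 CPM in the Pam3CSK4-labelled and 2158 ± 44.3 CPM in the untreated-labelled libraries (SD, n = 3 each). There the Pam3CSK4- and untreated-labelled ranges overlapped. That overlap depended on Mrpl52 and Mrpl45, the members with the largest falls. Without them the sum was 1920, 2029 and 1916 CPM in the 3SL-labelled and 2185, 2134 and 2168 CPM in the Pam3CSK4-labelled libraries. In the untreated-labelled libraries it was 2026, 2061 and 1980 CPM, below each Pam3CSK4-labelled one. Both genes were chosen by these same values, so leaving them out favours the Pam3CSK4-labelled sums. In bulk RNA, fewer cells of a type and less RNA per cell cannot be told apart. The small subunit's genes held 28.2 ± 0.285% of the family's counts in the 3SL-labelled, 29.9 ± 0.141% in the Pam3CSK4-labelled and 28.6 ± 0.196% in the untreated-labelled libraries (SD, n = 3 each). Mrpl52 and Mrpl45 belong to the large subunit, and their falls lower its part in the Pam3CSK4-labelled libraries. With composition scaling the small subunit summed to 589 ± 16.4, 660 ± 4.59 and 617 ± 12.6 CPM, in the same order. The large subunit summed to 1491 ± 56.6, 1538 ± 19.6 and 1532 ± 32.7 CPM (SD, n = 3 each). The share without Mrpl52 and Mrpl45 was not computed.

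**Figure D1:**
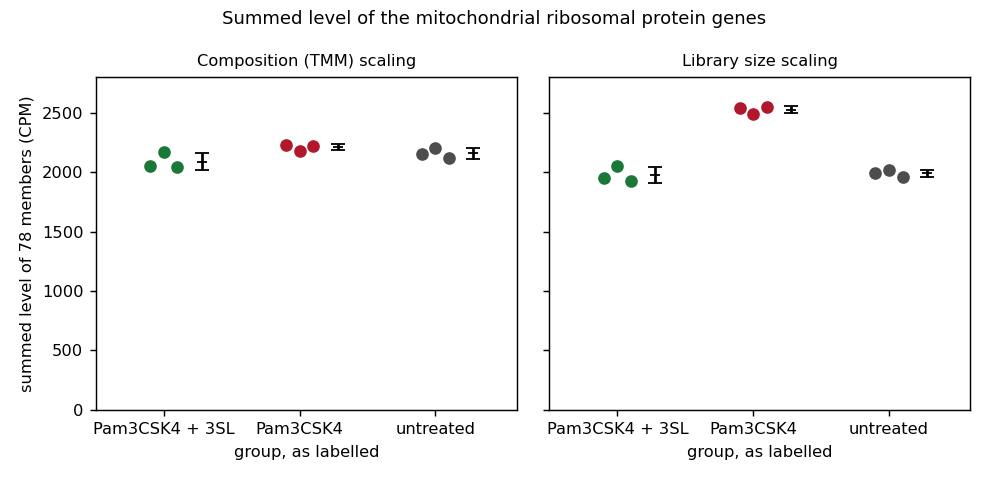
Summed level of the 78 members in each library (CPM), with composition scaling on the left and library size scaling on the right; points are libraries, and the bar beside them is the mean ± SD of 3. The Pam3CSK4-labelled libraries stand near 2209 CPM with composition scaling, overlapping the untreated-labelled ones near 2158 CPM, and near 2527 CPM with library size scaling, above all others. Without Mrpl52 and Mrpl45, which is not drawn, the composition-scaled ranges of these groups did not overlap.

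The first comparison asks what differed between the Pam3CSK4-labelled and the untreated-labelled libraries. With composition scaling, 28 members were called higher, against 39.0% of all tested genes, and 17 were called lower, against 35.9%. The remaining 32 members were not called. Without composition factors 58 were called higher, against 60.0% of all tested genes, and 4 lower, against 20.8%. The called changes were small: 7 members were called and at least 1.5-fold higher, against 22.8% of all tested genes, and 4 at least 1.5-fold lower, against 17.4%. Under library size scaling these counts were 21, against 35.3%, and 2, against 11.7%. Changes of at least 1.5-fold in either direction were thus called for 14.3% of tested members and 40.2% of all tested genes with composition scaling, and for 29.9% and 47.0% with library size scaling. The interquartile range of the change was 0.43 on the log2 scale for the members and 0.91 for all tested genes, under either scaling. The members' median change was 0.11 with composition and 0.42 with library size scaling, 0.081 above that of all tested genes in both, and 45 of the 77 lay above the all-gene median in both. With composition scaling the median was 0.064 without the Pam3CSK4 library D1, 0.037 above that of all tested genes, and 0.079 without the untreated library C2, 0.050 above it.

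**Figure D2:**
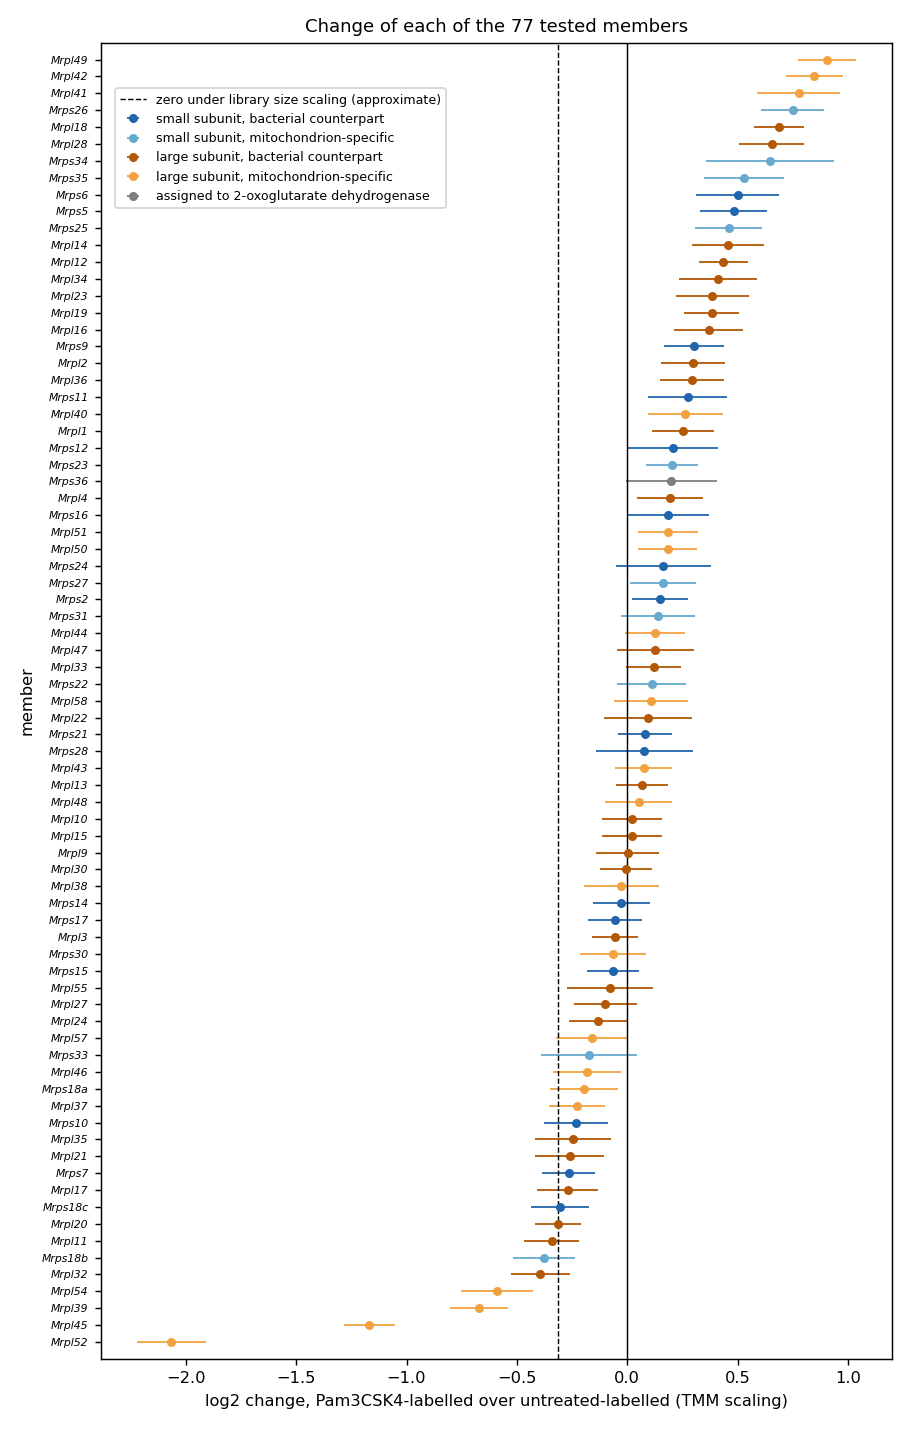
Log2 change of each of the 77 tested members, Pam3CSK4-labelled over untreated-labelled, composition scaling (x axis, bars are 95% intervals from the edgeR standard error; y axis, members in order of change; colour, subunit and origin). Most members lie within 0.5 of zero, 4 large subunit members reach -0.59 or lower, and the dashed line marks about where zero would fall with library size scaling.

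The calls that held under both scalings were 28 higher and 4 lower, and no member was called in opposite directions. Library size scaling raised nearly all genes by a like amount here. Rises called with composition scaling could thus hardly fail to hold, and all 28 did. The share of all tested genes called under both was not counted. It can be at most 39.0% higher and 20.8% lower. The 4 members lower under both scalings were Mrpl52, Mrpl45, Mrpl39 and Mrpl54, all large subunit proteins without a bacterial counterpart. The other 13 falls were called with composition scaling only, and another 30 members were called higher with library size scaling only. By class, with composition scaling and against 39.0% of all tested genes called higher and 35.9% lower, 5 of 16 small subunit members with a bacterial counterpart were called higher and 3 lower, and of the 10 mitochondrion-specific ones 5 were higher and 1 lower. Among the large subunit members 12 of 30 with a bacterial counterpart were higher and 6 lower, and of the 20 tested mitochondrion-specific ones 6 were higher and 7 lower. Without composition factors, where the shares of all tested genes were 60.0% and 20.8%, no small subunit member was called lower, and 13 of 16 and 8 of 10 were called higher. In the large subunit 24 of 30 and 12 of 20 were then higher, and the 4 named falls were the only ones.

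Mrpl52 had the largest change of the family. It stood at 64.7, 76.5 and 60.5 CPM in the 3SL-labelled libraries and 15.4, 16.8 and 15.7 CPM in the Pam3CSK4-labelled libraries, against 62.5, 70.5 and 67.9 CPM in the untreated-labelled libraries. Values in all 3 libraries labelled Pam3CSK4 were far below both other groups, which overlapped. The log2 change was -2.07 ± 0.079 (SE), or 4.18-fold lower (edgeR adjusted p = 5.4e-19), and -1.75 with library size scaling. A measure that needs no scaling moved likewise: Mrpl52 held 3.15, 3.52 and 2.96% of the family's counts in the 3SL-labelled libraries and 0.693, 0.771 and 0.710% in the Pam3CSK4-labelled ones, against 2.90, 3.20 and 3.21% in the untreated-labelled ones. Mrpl52 lies on chromosome 14, bases 54426909 to 54429756 of GRCm38 on the plus strand, and no other annotated exon overlaps it. The next gene on that strand, 1856 bases beyond its end, is Mmp14, which encodes a membrane-bound matrix metalloproteinase. Mmp14 stood at 1052, 1057 and 1061 CPM in the 3SL-labelled libraries and 10.2, 8.49 and 9.25 CPM in the Pam3CSK4-labelled libraries, against 1086, 1112 and 1112 CPM in the untreated-labelled libraries, a log2 change of -6.90 (edgeR adjusted p = 3.2e-35). The part of this neighbour in the Mrpl52 counts was not tested.

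Mrpl45, which lies beside the exit of the peptide tunnel and helps to attach the mitoribosome to the inner membrane, stood at 66.9, 66.97 and 64.3 CPM in the 3SL-labelled libraries and 29.4, 30.1 and 33.2 CPM in the Pam3CSK4-labelled libraries, against 65.6, 72.7 and 68.6 CPM in the untreated-labelled libraries. Again the Pam3CSK4-labelled libraries lay below all others, and the other groups overlapped. The log2 change was -1.17 ± 0.059 (SE), 2.25-fold lower (edgeR adjusted p = 2.8e-16), and -0.86 with library size scaling. Mrpl45 occupies chromosome 11, bases 97315716 to 97329920 of GRCm38 on the plus strand, and its exons overlap no other annotated exon. The nearest gene of the count table beyond its end is Gpr179, 2189 bases away, and genes further out were not searched. On its other side the nearest is Npepps, which encodes an aminopeptidase and starts on the opposite strand with 35078 bases between them. Npepps was lower as well, at -1.503 (edgeR adjusted p = 2.2e-21).

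Mrpl39 and Mrpl54, both mitochondrion-specific, changed less. Mrpl39, a protein related to threonyl-tRNA synthetase, stood at 40.2, 41.5 and 41.6 CPM in the 3SL-labelled libraries and 26.96, 29.2 and 28.5 CPM in the Pam3CSK4-labelled libraries, against 46.6, 46.7 and 40.1 CPM in the untreated-labelled libraries. Its log2 change was -0.67 ± 0.067 (SE, edgeR adjusted p = 6.6e-10), and -0.36 with library size scaling. Mrpl54 stood at 24.03, 25.8 and 27.96 CPM in the 3SL-labelled libraries and 17.4, 21.3 and 20.6 CPM in the Pam3CSK4-labelled libraries, against 33.001, 29.3 and 26.9 CPM in the untreated-labelled libraries, a log2 change of -0.59 ± 0.083 (SE, edgeR adjusted p = 4.3e-07), and -0.28 with library size scaling. For both genes each Pam3CSK4-labelled library lay below each untreated-labelled one.

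The promoters of the most changed members are shown with the matches to 3 motifs known from genes of mitochondrial biogenesis. Windows run from 250 bases before to 50 after the annotated start, 5′ to 3′ on the gene's strand, from RefSeq on GRCm38.p6. Capitals mark any match, on either strand, to GCGCANGCG (bound by NRF1), CCGGAAG (bound by ETS factors such as GABP) or AAGATGGC (bound by YY1). The Mrpl52 and Mrpl45 windows, chr14:54426659-54426958 (plus strand) and chr11:97315466-97315765 (plus strand), belong to the most lowered members, and the Mrpl49 and Mrpl42 windows, chr19:6057706-6058005 (minus strand) and chr10:95501900-95502199 (minus strand), to the most raised.
Mrpl52: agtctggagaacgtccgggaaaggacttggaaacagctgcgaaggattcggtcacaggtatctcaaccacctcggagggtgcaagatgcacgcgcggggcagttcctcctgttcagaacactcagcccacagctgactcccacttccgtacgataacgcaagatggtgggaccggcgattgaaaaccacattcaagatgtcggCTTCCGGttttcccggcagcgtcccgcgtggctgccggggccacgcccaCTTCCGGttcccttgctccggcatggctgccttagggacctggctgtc
Mrpl45: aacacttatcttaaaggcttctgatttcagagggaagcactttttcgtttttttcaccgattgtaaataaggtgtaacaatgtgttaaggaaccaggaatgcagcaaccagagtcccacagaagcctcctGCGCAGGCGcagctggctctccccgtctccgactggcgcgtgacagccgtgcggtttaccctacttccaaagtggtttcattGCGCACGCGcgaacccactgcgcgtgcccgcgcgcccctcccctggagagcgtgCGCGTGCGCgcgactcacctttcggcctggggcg
Mrpl49: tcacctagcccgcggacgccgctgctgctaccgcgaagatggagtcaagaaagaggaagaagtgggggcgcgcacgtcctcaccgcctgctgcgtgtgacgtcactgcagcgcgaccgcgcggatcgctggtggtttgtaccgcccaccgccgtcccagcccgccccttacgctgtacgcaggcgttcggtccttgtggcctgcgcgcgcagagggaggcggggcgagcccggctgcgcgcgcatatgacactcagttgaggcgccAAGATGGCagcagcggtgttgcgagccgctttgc
Mrpl42: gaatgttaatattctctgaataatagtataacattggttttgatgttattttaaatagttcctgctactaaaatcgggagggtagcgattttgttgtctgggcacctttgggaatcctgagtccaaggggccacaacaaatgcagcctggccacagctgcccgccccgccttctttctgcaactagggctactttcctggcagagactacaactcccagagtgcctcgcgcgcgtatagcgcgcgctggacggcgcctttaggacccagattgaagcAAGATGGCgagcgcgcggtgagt
The Mrpl52 window held 2 matches to CCGGAAG, both as the reverse complement, that of Mrpl45 held 3 to GCGCANGCG, and those of Mrpl49 and Mrpl42 held 1 each to AAGATGGC just after the start. Of the 78 members 69 had a window in the RefSeq table. CCGGAAG occurred in 37.7% of these genes and in 9.93% of all 27025 genes with a window. The shares were 23.2% and 7.03% for GCGCANGCG, 17.4% and 3.19% for AAGATGGC, and 7.25% and 8.09% for the E-box CACGTG, which was searched in the same way. Matches of different motifs were allowed to overlap. The matches are descriptions of letters. Of all tested genes 39.0% were called higher and 35.9% lower with composition scaling, and 60.0% and 20.8% with library size scaling. Among tested members with CCGGAAG 5 of 25 were called higher with composition scaling in the Pam3CSK4-labelled libraries and 6 were called lower, and 17 and 1 with library size scaling. With GCGCANGCG 4 of 16 were higher and 5 lower, and 10 and 2 with library size scaling. With AAGATGGC 4 of 12 were higher and 5 lower, and 7 and 0 with library size scaling. With CACGTG 2 of 5 were higher and 3 lower, and 2 and 0 with library size scaling.

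The largest rises were in both subunits. Mrpl49, a mitochondrion-specific large subunit protein, stood at 20.1, 21.8 and 21.04 CPM in the 3SL-labelled libraries and 40.4, 36.2 and 37.6 CPM in the Pam3CSK4-labelled libraries, against 20.7, 20.03 and 20.1 CPM in the untreated-labelled libraries. Every Pam3CSK4-labelled library was above every other library. The log2 change was 0.91 ± 0.068 (SE), 1.87-fold higher (edgeR adjusted p = 1.9e-12). Its neighbours on both sides went the other way with composition scaling, Syvn1 at -0.41, which shares 91 exonic bases with it, and Fau, 59 bases away, at -0.30; with library size scaling they stood at -0.10 and 0.0085. Mrpl42, also mitochondrion-specific, stood at 27.8, 27.02 and 26.7 CPM in the 3SL-labelled libraries and 48.5, 52.5 and 49.7 CPM in the Pam3CSK4-labelled libraries, against 28.4, 29.3 and 24.7 CPM in the untreated-labelled libraries. That is a log2 change of 0.85 ± 0.066 (SE, edgeR adjusted p = 4.1e-12), again with all Pam3CSK4-labelled libraries above all others. Mrpl41 stood at 11.2, 14.5 and 11.2 CPM in the 3SL-labelled libraries and 21.4, 19.97 and 19.9 CPM in the Pam3CSK4-labelled libraries, against 10.3, 12.7 and 12.3 CPM in the untreated-labelled libraries, a log2 change of 0.78 ± 0.096 (SE, edgeR adjusted p = 4.1e-08).

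Of the small subunit, Mrps26 rose most. It stood at 16.6, 17.4 and 17.7 CPM in the 3SL-labelled libraries and 29.1, 30.9 and 31.9 CPM in the Pam3CSK4-labelled libraries, against 19.6, 17.9 and 16.97 CPM in the untreated-labelled libraries, a log2 change of 0.75 ± 0.073 (SE, edgeR adjusted p = 4.6e-10). Mrpl18, which sits in the central protuberance of the large subunit, averaged 34.7 ± 1.85 CPM in the 3SL-labelled and 58.2 ± 2.21 CPM in the Pam3CSK4-labelled libraries, against 36.3 ± 1.28 CPM in the untreated-labelled ones (SD, n = 3 each). Its log2 change was 0.69 (edgeR adjusted p = 2.4e-11). Mrpl28 averaged 24.8 ± 3.20 CPM in the 3SL-labelled and 41.2 ± 2.57 CPM in the Pam3CSK4-labelled libraries, against 26.5 ± 2.12 CPM in the untreated-labelled ones (SD, n = 3 each), a log2 change of 0.66 (edgeR adjusted p = 1.1e-08). Mrps34, the other small subunit member past 1.5-fold, is uncertain, because 77.8% of its exonic length is shared with Mapk8ip3 or Nme3 and the counting of strand was not given. It averaged 5.35 ± 1.06 CPM in the 3SL-labelled and 7.52 ± 0.450 CPM in the Pam3CSK4-labelled libraries, against 4.79 ± 0.929 CPM in the untreated-labelled ones (SD, n = 3 each), a log2 change of 0.64 (edgeR adjusted p = 3.2e-04).

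**Figure D3:**
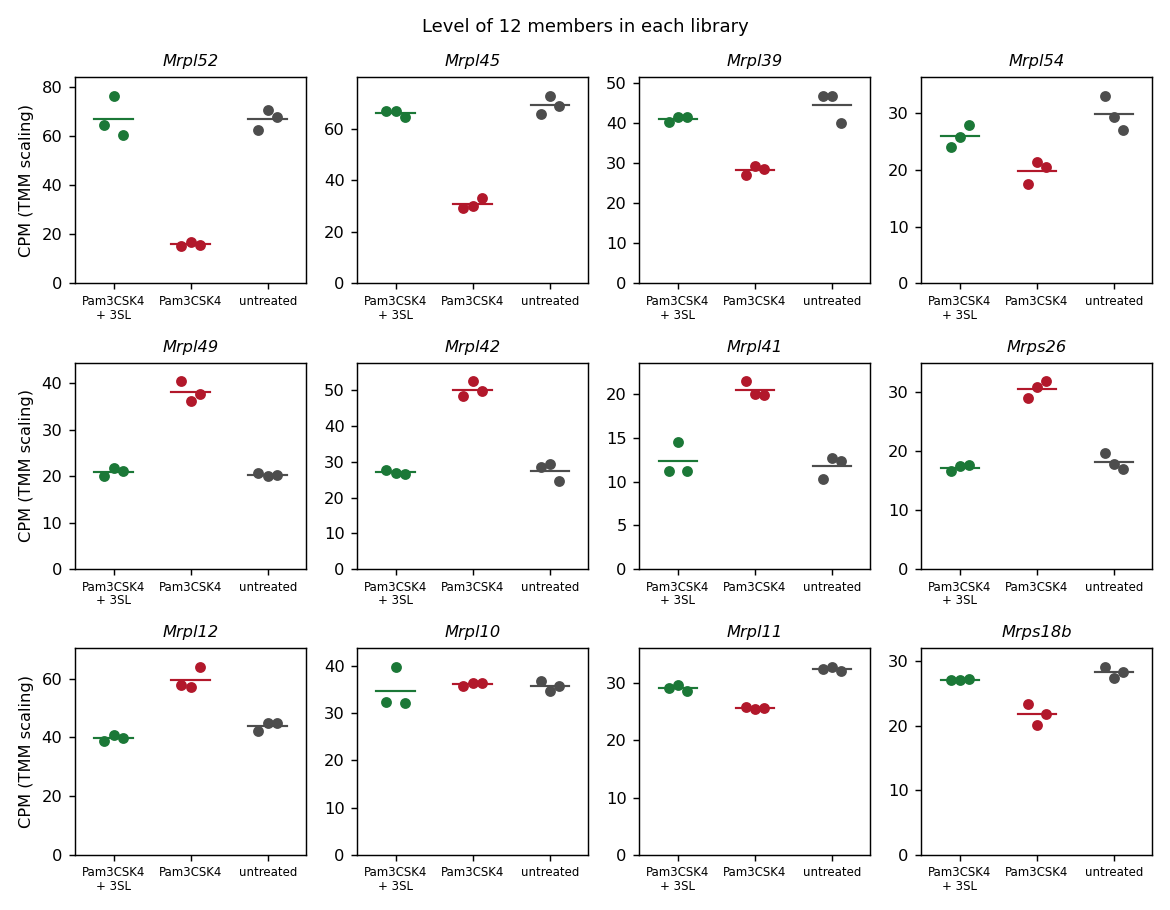
Level of 12 members in each library (y axis, CPM with composition scaling, starting at 0; x axis, group as labelled; points, libraries; lines, group means of 3). In the top row the Pam3CSK4-labelled libraries are lowest, with Mrpl52 between 15.4 and 16.8 CPM, and in the middle row they are highest, with Mrpl42 between 48.5 and 52.5 CPM.

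Of 3 proteins of the stalk, 1 was called higher, 1 was not called and 1 was called lower with composition scaling. With library size scaling 2 were called higher and 1 was not called. The shares of all tested genes called higher and lower were 39.0% and 35.9% with composition and 60.0% and 20.8% with library size scaling. The stalk, which recruits translation factors, holds Mrpl12, bound to Mrpl10 and next to Mrpl11. Mrpl12 stood at 38.6, 40.9 and 39.7 CPM in the 3SL-labelled libraries and 57.8, 57.1 and 64.04 CPM in the Pam3CSK4-labelled libraries, against 42.2, 44.8 and 44.96 CPM in the untreated-labelled libraries, a log2 change of 0.44 ± 0.057 (SE, edgeR adjusted p = 1.2e-07). Mrpl10, its anchor, stood at 32.5, 39.9 and 32.2 CPM in the 3SL-labelled libraries and 35.8, 36.4 and 36.4 CPM in the Pam3CSK4-labelled libraries, against 36.9, 34.7 and 35.8 CPM in the untreated-labelled libraries, a log2 change of 0.021 ± 0.07 (SE) that was not called with composition scaling (edgeR adjusted p = 0.80) and was 0.33 and called higher with library size scaling (edgeR adjusted p = 1.0e-04). Mrpl11 stood at 29.1, 29.7 and 28.7 CPM in the 3SL-labelled libraries and 25.9, 25.5 and 25.8 CPM in the Pam3CSK4-labelled libraries, against 32.4, 32.9 and 32.2 CPM in the untreated-labelled libraries, a log2 change of -0.34 ± 0.064 (SE, edgeR adjusted p = 2.6e-05), and was not called with library size scaling, at -0.028. As shares of the family's counts, which no scaling alters, Mrpl12 held 1.88, 1.88 and 1.95% in the 3SL-labelled and 2.59, 2.62 and 2.89% in the Pam3CSK4-labelled libraries, against 1.958, 2.03 and 2.12% in the untreated-labelled ones. Mrpl11 held 1.42, 1.37 and 1.40% and 1.16, 1.17 and 1.16%, against 1.51, 1.49 and 1.52%, in the same order of groups.

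Around the exit of the peptide tunnel, Mrpl45 fell as given above, while Mrpl23 was higher by 0.39 ± 0.084 on the log2 scale (SE, edgeR adjusted p = 1.9e-04). Mrpl22, Mrpl24 and Mrpl44 were not called with composition scaling, at 0.094, -0.13 and 0.13 (edgeR adjusted p = 0.41, 0.074 and 0.11). All 3 were called higher with library size scaling, at 0.41, 0.18 and 0.44, where 60.0% of all tested genes were called higher, with a median of 0.34. Mrpl58, a peptidyl-tRNA hydrolase built into the large subunit, was at 0.11 and not called with composition scaling, and at 0.42 and called higher with library size scaling. Mrpl37 and Mrps30, related proteins that both sit in the large subunit, were at -0.23 (edgeR adjusted p = 0.003) and -0.065 (edgeR adjusted p = 0.45) with composition scaling, and turned to 0.086 and 0.25 with library size scaling, where only Mrps30 was called. Mrpl32, whose processing by a mitochondrial protease precedes its assembly, was at -0.39 (edgeR adjusted p = 9.0e-06), and at -0.08 and not called with library size scaling.

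Mrps18a, Mrps18b and Mrps18c are related to bacterial S18 and occupy different places in the particle. Mrps18b is counted above as mitochondrion-specific by the place of its protein in the particle. Mrps18b, in the small subunit, stood at 27.1, 27.1 and 27.2 CPM in the 3SL-labelled libraries and 23.4, 20.2 and 21.8 CPM in the Pam3CSK4-labelled libraries, against 29.1, 27.4 and 28.3 CPM in the untreated-labelled libraries, a log2 change of -0.38 ± 0.071 (SE, edgeR adjusted p = 3.0e-05). Mrps18c, at the place of S18 itself, was at -0.30 (edgeR adjusted p = 2.0e-04). Mrps18a, which is found in the large subunit, was at -0.20 (edgeR adjusted p = 0.026), a call that was lost without the untreated library B2 (adjusted p = 0.12) or the Pam3CSK4 library D2 (adjusted p = 0.14). None of them was called with library size scaling, at -0.064, 0.0099 and 0.12 for Mrps18b, Mrps18c and Mrps18a, so the last 2 changed sign.

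Among the proteins of the decoding subunit, Mrps9 was called higher, at 0.30 (edgeR adjusted p = 3.0e-04), and 0.62 with library size scaling. Mrps35, also called, was at 0.53 (edgeR adjusted p = 1.2e-05). Mrps7, whose bacterial counterpart starts the assembly of the subunit's head, was called lower at -0.26 (edgeR adjusted p = 3.7e-04) with composition scaling and not called, at 0.048, with library size scaling. Mrps12, which lines the decoding centre, and Mrps22, Mrps27, Mrps21 and the reassigned Mrps36 were not called with composition scaling, at 0.21, 0.11, 0.16, 0.081 and 0.20. With library size scaling all 5 were called higher, between 0.39 and 0.52. There 60.0% of all tested genes were called higher too, and the median change of all tested genes was 0.34. Mrps12 moved past the threshold without the untreated library A2 or the Pam3CSK4 library D1 or D2, where its adjusted p was 0.032, 0.037 and 0.042. Mrps27 did so without D3 (edgeR adjusted p = 0.026) and Mrps36 without D2 (edgeR adjusted p = 0.029).

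The second comparison asks how the 3SL-labelled libraries differed from the Pam3CSK4-labelled ones. It shares the Pam3CSK4-labelled libraries with the first, so the 2 sets of changes are not independent. With composition scaling 12 members were called higher, against 34.7% of all tested genes, and 33 lower, against 36.8%. With library size scaling 3 were higher, against 21.2%, and 59 lower, against 55.7%. Members called and at least 1.5-fold changed numbered 2 higher, against 17.4%, and 7 lower, against 21.0%, and with library size scaling 2 higher, against 11.8%, and 22 lower, against 31.8%. The median change was -0.15 with composition and -0.42 with library size scaling, 0.13 below that of all tested genes in both, and 53 of 77 members lay below the all-gene median. Mrpl39, Mrpl45 and Mrpl52 were called higher under both scalings, and 33 members were called lower under both. Library size scaling lowered nearly all genes by a like amount here, so falls called with composition scaling could hardly fail to hold. Of all tested genes at most 21.2% can be higher and 36.8% lower under both.

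Mrpl52 was higher by 2.07 ± 0.085 on the log2 scale in the 3SL-labelled libraries (SE, edgeR adjusted p = 2.8e-18), or 4.19-fold higher, and by 1.79 with library size scaling. Mrpl45 was higher by 1.098 ± 0.064 (SE, edgeR adjusted p = 8.4e-15) and Mrpl39 by 0.54 ± 0.073 (SE, edgeR adjusted p = 2.5e-07). Mrpl54, Mrps18b, Mrpl32 and Mrpl57 were called higher with composition scaling only, at 0.39, 0.33, 0.30 and 0.30, against 0.12, 0.052, 0.022 and 0.025 with library size scaling. The call of Mrpl57 was lost without the Pam3CSK4 library D2 (edgeR adjusted p = 0.0504). The largest falls were those of Mrpl42 at -0.89, Mrpl49 at -0.85, Mrps26 at -0.83, Mrpl18 at -0.75, Mrpl28 at -0.72 and Mrpl41 at -0.72, each called under both scalings (edgeR adjusted p between 1.9e-11 and 1.8e-06 with composition scaling). For each of these genes all 3SL-labelled libraries lay below all Pam3CSK4-labelled ones with composition scaling. In the stalk, Mrpl12 was called lower at -0.58 ± 0.064 on the log2 scale (SE, edgeR adjusted p = 6.0e-09), Mrpl10 was at -0.047 and not called, and Mrpl11 was called higher at 0.18 (edgeR adjusted p = 0.026). The last call was lost without D2, D3 or B2plus (edgeR adjusted p = 0.063, 0.053 and 0.072), and Mrpl11 turned to -0.093 with library size scaling.

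The reassigned Mrps36 was called lower at -0.42 ± 0.12 on the log2 scale (SE, edgeR adjusted p = 0.0037), and Mrps34 at -0.48 ± 0.17 (SE, edgeR adjusted p = 0.014), a call lost without C2plus (adjusted p = 0.097). By subunit, against 34.7% of all tested genes called higher and 36.8% lower, 1 of 26 small subunit members was called higher and 12 lower, and 11 of the 50 tested large subunit members were higher and 20 lower. With library size scaling these were 0 and 22, and 3 and 36, against 21.2% and 55.7%.

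The third comparison asks how the 3SL-labelled libraries differed from the untreated-labelled ones. With composition scaling 0 members were called higher, against 3.83% of all tested genes, and 0 lower, against 5.11%. With library size scaling the counts were also 0, against 6.87%, and 0, against 3.54%. At an unadjusted p under 0.05 there were 8 members with composition and 2 with library size scaling in edgeR, against 2437 and 2609 of the 11469 tested genes, and DESeq2 gave 0 adjusted calls and 3 at an unadjusted p under 0.05. Of 9923 genes DESeq2 called 282 higher and 505 lower. The smallest edgeR adjusted p of a member with composition scaling was 0.077, for Mrps10. Without the untreated library C2, Mrps10 and Mrps18c were called lower, among 603 called lower of 11666 tested genes. The median change was -0.044 with composition and -0.0046 with library size scaling, 0.043 below that of all tested genes in both, and 56 of 77 members lay below the all-gene median. With composition scaling this gap to all tested genes was -0.013 without the untreated library B2 and -0.079 without the 3SL library B2plus. The 95% intervals of the 77 changes lay between -0.46, the lower bound of Mrps36, and 0.51, the upper bound of Mrps34, on the log2 scale with composition scaling, and between -0.42 and 0.55 with library size scaling. These bounds are inside 1.5-fold, which is 0.58 on that scale. Mrpl52 was at 0.0032 ± 0.069 (SE) with composition scaling, with means of 67.2 ± 8.29 CPM in the 3SL-labelled and 66.97 ± 4.08 CPM in the untreated-labelled libraries (SD, n = 3 each), and Mrpl45 was at -0.071 ± 0.057 (SE).

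**Figure D4:**
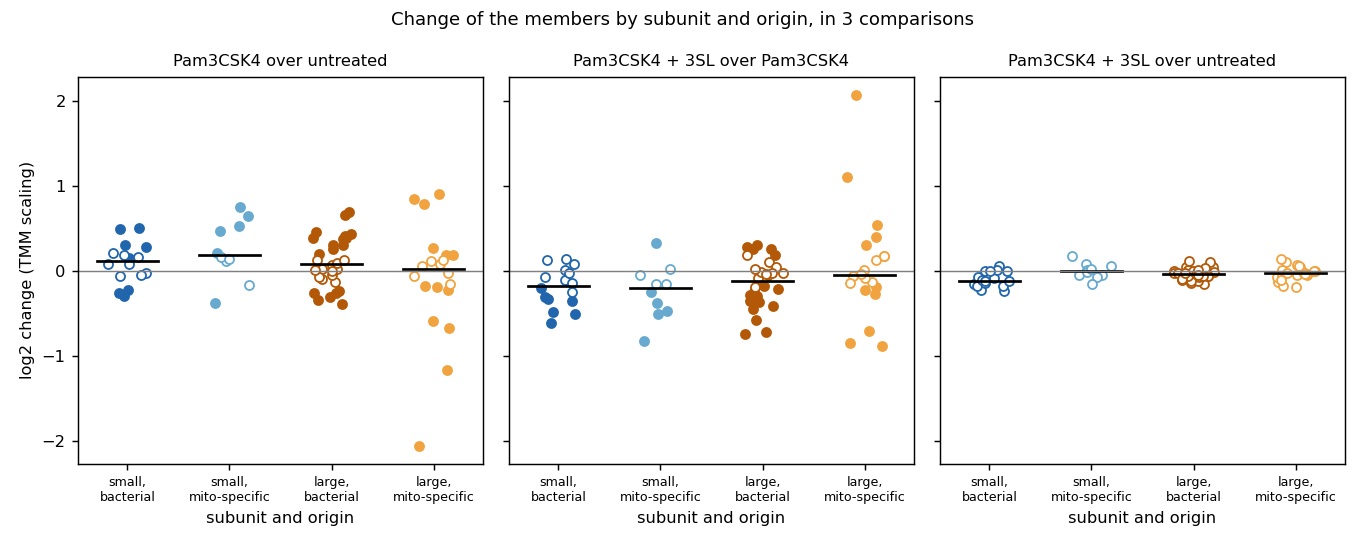
Log2 change of each tested member with composition scaling (y axis) by subunit and origin (x axis) in the 3 comparisons; filled points were called, open points were not, and lines are class medians. Mrps36 is left out, the 2 points beyond -1 and the 2 beyond 1 are Mrpl52 and Mrpl45, and in the right panel every point lies between -0.24 and 0.17.

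Per kb of exonic length, the members of the 2 subunits were not at one level. Over all 9 libraries, with composition scaling, the tested members had a median of 11.1 CPM per kb, with 25th and 75th percentiles of 5.79 and 16.7, which differ 2.88-fold. Over all libraries the highest were Mrpl52 at 45.1, Mrps21 at 43.1 and Mrps18c at 35.8 CPM per kb. Mrpl52 stood highest through 2 of the groups: it averaged 60.6 CPM per kb in the 3SL-labelled, 14.4 in the Pam3CSK4-labelled and 60.4 in the untreated-labelled libraries, against member medians of 10.7, 11.1 and 10.7, and ranked 25 of 77 in the Pam3CSK4-labelled ones, where Mrps21 was highest at 45.9. The lowest were Mrpl53 at 0.148, Mrps35 at 1.35 and Mrpl48 at 2.56 CPM per kb. The lengths are those of all annotated exons of a gene, so a long, little used exon lowers its value: they were 8.63 kb for Mrps35, 8.15 kb for Mrpl48 and 0.739 kb for Mrps21. Exonic overlap with another gene exceeded 10% of the length in 18 members and 50% in 3, which are Mrpl53, Mrps34 and Mrps25. Mrps25, named for its overlap of 69.8%, was at 0.46 in the first comparison, and its value is likewise uncertain. Mrps36, Mrpl23 and Mrpl48 have 3, 1 and 1 pseudogenes that carry their names, none of them a gene of the table, and how reads shared with such copies were counted was not given.

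The other genes of mitochondrial translation were described as 7 lists in the first comparison, to be read against the 39.0% of all tested genes called higher and 35.9% called lower with composition scaling, and 60.0% and 20.8% with library size scaling. Of 5 mitoribosomal proteins with other names, 1 was called higher and 0 lower. It was Ptcd3 at 0.34 (edgeR adjusted p = 2.5e-05), while the next, Dap3, was at -0.12 and not called (edgeR adjusted p = 0.12). All 5 were called higher with library size scaling. Of 27 factors of mitoribosome assembly and ribosomal RNA modification 11 (40.7%, near the share of all tested genes) were higher and 3 lower, and 21 and 1 with library size scaling. Rbfa, which matures the small subunit, stood at 15.9, 21.1 and 19.4 CPM in the 3SL-labelled libraries and 37.8, 40.3 and 40.3 CPM in the Pam3CSK4-labelled libraries, against 15.6, 19.7 and 18.3 CPM in the untreated-labelled libraries, a log2 change of 1.121 (edgeR adjusted p = 1.3e-12), and the GTPase Noa1 was at 0.67 (edgeR adjusted p = 1.8e-08).

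Of 16 tested translation factors 6 (37.5%, again near that share) were higher and 2 lower, and 14 and 0 with library size scaling. Guf1, a GTPase related to bacterial elongation factor 4, stood at 16.02, 15.1 and 15.5 CPM in the 3SL-labelled libraries and 28.2, 34.5 and 36.1 CPM in the Pam3CSK4-labelled libraries, against 15.7, 16.3 and 15.6 CPM in the untreated-labelled libraries, a log2 change of 1.05 (edgeR adjusted p = 5.1e-12). Lrpprc, which stabilises mitochondrial messengers, was at 0.43 (edgeR adjusted p = 3.3e-09). The list of enzymes that load mitochondrial tRNAs, 17 synthetases and 3 subunits of the glutamyl-tRNA amidotransferase, held the largest share of rises among the 7 lists with composition scaling, though not with library size scaling: 15 of 20 were higher and 1 lower, and 19 and 0 with library size scaling, with a median change of 0.41 and 0.73, against 0.027 and 0.34 for all tested genes. Vars2, for valine, stood at 7.17, 5.97 and 6.20 CPM in the 3SL-labelled libraries and 14.5, 15.4 and 15.3 CPM in the Pam3CSK4-labelled libraries, against 4.88, 5.22 and 6.36 CPM in the untreated-labelled libraries, a log2 change of 1.497 (edgeR adjusted p = 1.8e-12).

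The messengers that mitoribosomes translate are encoded in the mitochondrial genome. Of 11 tested mitochondrially encoded mRNAs 7 were called lower and 0 higher with composition scaling, and with library size scaling the direction turned, with 7 higher and 0 lower. The largest size among the 11 was 0.18 with composition and 0.34 with library size scaling. The Complex I subunit gene mt-Nd5 stood at 1282, 1260.0 and 1309.8 CPM in the 3SL-labelled libraries and 1184, 1219 and 1152 CPM in the Pam3CSK4-labelled libraries, against 1322, 1279 and 1435 CPM in the untreated-labelled libraries, a log2 change of -0.18 (edgeR adjusted p = 3.2e-05), and mt-Co1 was at -0.15 (edgeR adjusted p = 1.1e-04). These became 0.13 and 0.16 with library size scaling. Levels within this list were far apart: mt-Co1 stood at 4524 to 5573 CPM over the 9 libraries, but mt-Co2, whose subunit is part of the same enzyme, at 4.35 to 5.58 CPM, not scaled for length. How reads that also match nuclear copies of mitochondrial sequence were counted was not given.

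Of 10 tested genes of mitochondrial transcription and DNA upkeep 4 (40%, near the share of all tested genes) were higher and 0 lower, and 7 and 0 with library size scaling. The helicase Twnk was at 0.81 (edgeR adjusted p = 5.5e-06) and Tfam, which packages mitochondrial DNA, at 0.37 (edgeR adjusted p = 5.4e-05). Of 9 tested regulators of mitochondrial biogenesis 3 were higher and 5 lower, and 6 and 1 with library size scaling. Esrra, a nuclear receptor, stood at 64.1, 65.9 and 64.7 CPM in the 3SL-labelled libraries and 36.6, 35.6 and 40.1 CPM in the Pam3CSK4-labelled libraries, against 68.1, 71.2 and 67.3 CPM in the untreated-labelled libraries, a log2 change of -0.89 (edgeR adjusted p = 2.4e-14), and -0.58 with library size scaling. Gabpb2, a partner subunit of GABP, was at 0.50 (edgeR adjusted p = 1.3e-08). These 2 had the smallest p of the list, not its widest range: with composition scaling its changes ran from -0.89 to 2.18. There 1 gene was called and at least 1.5-fold higher and 1 lower.

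**Figure D5:**
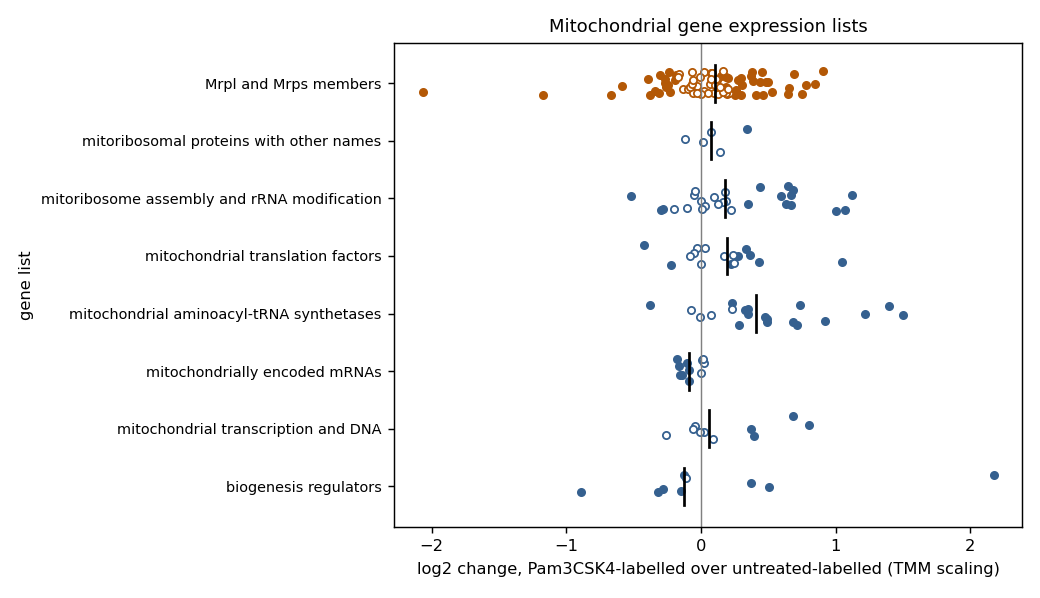
Log2 change, Pam3CSK4-labelled over untreated-labelled with composition scaling (x axis), of the members and of 7 other lists (y axis); filled points were called, open points were not, and lines are list medians. The aminoacyl-tRNA synthetases, drawn with 3 amidotransferase subunits, have the highest median, 0.41, and the mitochondrially encoded mRNAs lie within 0.2 of zero.

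In the 3SL-labelled against the Pam3CSK4-labelled libraries, which share a group with the first comparison, 16 of the 20 tRNA-loading enzymes were called lower and 1 higher, 13 of 27 assembly factors lower and 3 higher, 5 of 16 translation factors lower and 1 higher, and 2 of 5 other-named proteins lower and 0 higher, against 36.8% of all tested genes called lower and 34.7% higher. With library size scaling these were 17 and 0, 20 and 1, 12 and 0, and 5 and 0, against 55.7% and 21.2%. Between the 3SL-labelled and the untreated-labelled libraries none of these 4 lists held a called gene under either scaling. Among the mitochondrially encoded mRNAs mt-Nd1 and mt-Cytb, named as the only 2 called there, were lower by 0.12 and 0.19 on the log2 scale with composition scaling (edgeR adjusted p = 0.0077 and 1.3e-04), and 1 of them with library size scaling.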

How the data were processed

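The table of raw read counts per gene was used as the authors deposited it, with mouse gene identifiers. The tools named in the submitters' processing notes are HISAT2 2.1.0, Subread and its counter featureCounts. The same notes name the human build hg38, although the identifiers are mouse. The counting of strand was not given in the sources used here. Another 15 columns of per-sample values belong to no sample used here and were left out. RNA was taken up in TRIzol and libraries were made with a NEBNext Ultra kit, per the labels' protocols.

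Groups came from the labels. The members and gene lists were chosen with earlier results of these data known. Of 22001 genes, 11469 passed edgeR's filterByExpr, and p-values were adjusted over all of them. One quasi-likelihood model over the 9 libraries was fitted in edgeR 4.0.16 (R 4.3.3), with TMM factors and with library size alone. A gene was called at an adjusted p below 0.05, and a second rule also required 1.5-fold. Intervals are the log2 change ± 1.96 SE, with the SE taken as the size of the change over the square root of the F statistic. They use a normal quantile, so they are narrow for 3 libraries per group. Like the floor of 3 counts (0.0682 to 0.401 CPM over the libraries), they do not cover all sources of error. The floor covers counting error only. Scripts were tested on simulated data. DESeq2 1.42.0, other size factors, no filter, thinned counts, only the groups compared, a replicate block and the leaving out of each library were tried as alternatives. Named were, per comparison, the 6 called members with the highest and the 6 with the lowest change at a mean log2 CPM of at least 2, the 3 highest and 3 lowest per length, the untested member, members that the alternatives turned, a set chosen for its role (stalk, tunnel exit, the S18 paralogues and others) and, from each other list, the 2 genes with the smallest p. Some items that this rule or the marker lists name are not reported here. Other genes were named after their values were seen: the neighbours of Mrpl52, Mrpl45 and Mrpl49, and Mrps25 for its overlap. Positions and lengths come from GENCODE on GRCm38 and promoters from RefSeq on GRCm38.p6.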

Additional observations from a re-analysis of the deposited data

How the results depend on the processing

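The scaling moved the results most. With library size only, 58 members were called higher and 4 lower in the Pam3CSK4-labelled against the untreated-labelled libraries (21 and 2 at 1.5-fold, median 0.42), and 3 higher and 59 lower in the 3SL-labelled against the Pam3CSK4-labelled libraries (22 lower at 1.5-fold, median -0.42). Positive changes among all 11469 tested genes went from 5956 with composition to 8249 with library size scaling in the first comparison. They went from 5585 to 3584 in the second and from 5684 to 7084 in the third. Within that shared shift, 22 of the 77 tested members turned from negative to positive in the first comparison. In the second 17 members turned from positive to negative, and in the third 16 from negative to positive. The named members among them that were called under either scaling were, in the first, Mrpl24 at 0.18, Mrpl37 at 0.086, Mrps30 at 0.25, Mrps18a at 0.12, Mrps18c at 0.0099 and Mrps7 at 0.048, and, in the second, Mrpl11 at -0.093, Mrpl24 at -0.18 and Mrpl37 at -0.10. Under the other alternatives no named member that was called under either setting turned sign, while some uncalled ones did.

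With each library left out in turn, the median of the first comparison lay between 0.064 (without D1) and 0.11. The members called lower in the third comparison, 3SL against untreated by label, numbered 0 to 2 (2 without C2). Without C2, 603 of 11666 tested genes were called lower there. In the second comparison the call of Mrpl37 was lost without D1, D2 or C2plus (edgeR adjusted p = 0.13, 0.087 and 0.13), that of Mrps21 without C2plus (edgeR adjusted p = 0.067) and that of Mrps12 without D3 (edgeR adjusted p = 0.086). DESeq2 called 23 members higher and 16 lower in the first comparison, against 4000 and 4058 of 14141 genes. It called 10 higher and 26 lower in the second, against 3854 and 3799 of 14141. In the third it called 0 and 0, against 282 and 505 of 9923.

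The letters A, B and C recur in the 3SL and untreated groups, but same-letter libraries did not deviate together (correlations -0.017, 0.042 and 0.0080), and not every library correlated best with its own letter. With the letter as a replicate block 0 members were called in either direction, with a median of -0.029. Of 11019 tested genes 402 were then called higher and 549 lower. Depth ran from 7472482 to 43980309 counts, and Mrpl53 did not pass the filter on low counts. Whether depth limits the weakest members was not tested.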
